A study of Mus musculus with 5 samples.

Results

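Cyclins and the inhibitors of their partner kinases were compared between the atrioventricular canals (AVCs) of control and Sox9-deficient mouse embryos. The genes were 7 cyclins (Ccnd1, Ccnd2, Ccnd3, Ccne1, Ccne2, Ccna2 and Ccnb1) and 3 inhibitors of the Cip/Kip family (Cdkn1a, Cdkn1b and Cdkn1c), chosen by name and found by their symbols in the expression table. All 10 were in the table, with 1 transcript row each among 14697. The AVC is the part of the embryonic heart between atria and ventricles whose endocardial cushions give rise to the valves. Both groups were C57BL/6 embryos at embryonic day 12.5, and both carried the floxed Sox9 alleles Sox9fl/fl. The controls, Sox9fl/fl:+/+ (labelled WT), had no Cre, and the deleted embryos, Sox9fl/fl:Tie2-Cre/+ (Sox9 cKO), carried Tie2-Cre, so that the presence of Cre and the loss of Sox9 cannot be told apart. Tie2-Cre is active in endothelium, in the cushion mesenchyme that derives from it and in blood lineages, but not in the myocardium that is dissected along with the cushions. Each group is 1 sample in the table, the merged value of duplicate libraries from pooled AVCs that had been genotyped and tested for Sox9 loss beforehand. The study also mapped SOX9 binding by chromatin immunoprecipitation, which was not used here.

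Cyclins are the regulatory subunits of the cyclin-dependent kinases (CDKs). D-type cyclins act with CDK4 and CDK6 in response to growth signals, E-type cyclins with CDK2 at the entry into S phase, cyclin A2 with CDK2 and CDK1 through S phase and G2, and cyclin B1 with CDK1 in mitosis. The Cip/Kip proteins p21 (Cdkn1a), p27 (Cdkn1b) and p57 (Cdkn1c) bind cyclin-CDK complexes and, at sufficient levels, hold them inactive. In the developing heart, cushion mesenchyme and myocardium both proliferate at midgestation.

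Levels are given in nFPKM, the authors' further normalized FPKM (fragments per transcript length, scaled to the mapped total), which is a value per transcript length and so allows levels of different genes to be set side by side. With 1 value per genotype there was no replicate spread, no test and no p-value, and differences are described by size alone. The read depth behind the values is unknown. The authors' deposited log2 fold change is higher by 0.11 (median over transcripts) than the ratio computed from the nFPKM columns, so uncentred ratios and their signs depend on this offset. Log2 ratios here compare cKO with WT after a pseudocount of 1 was added, which understates the ratio of low genes. Before centring, 217 transcripts differed by at least 2-fold with this pseudocount, and 511 with a pseudocount of 0.1. The median over the 13793 transcripts that reached 1 nFPKM in WT or cKO was -0.11, and the "relative log2 ratio" is the distance from that median. Sox9 itself stood at 36.7 nFPKM in WT against 14.7 in cKO, a relative log2 ratio of -1.16, which goes with the labels. No value in the deposited table is 0, so its values alone do not show which cell types were absent. The pools differed in 5 measured sex-linked genes, of which 4 were higher and 1 was lower in cKO by at least 2-fold. The Y-linked Ddx3y (4.26 nFPKM in WT and 35.2 in cKO) and Uty (1.67 and 15.8 nFPKM) were higher. Xist, named after its value was seen, was lower (175 and 71.6 nFPKM). The part of this difference in the values below was not tested.

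All 10 genes were expressed in both genotypes, from 20.7 nFPKM (Cdkn1a in WT) to 584 nFPKM (Cdkn1c in cKO), and all 10 passed the filter on low values. None differed by 2-fold, a size reached by 1.57% of all transcripts before centring and 1.51% after it. A smaller rule, a relative log2 ratio of at least 0.32 either way (a ratio of 5 to 4), was met by 1 of the 10, Cdkn1a, which was higher in cKO. Of all transcripts, 10.8% were higher and 9.62% lower by this smaller rule, 20.4% together, so the count among cyclins and inhibitors was not above the background. Higher values made up 52.8% of the transcripts past this rule, and 28.4% without centring. The members' relative log2 ratios ran from -0.22 to 0.56 with a median of 0.11. Above the all-transcript median stood 8 of them and below it 2, Ccne1 and Ccnd1; without centring Ccna2 and Cdkn1b also had negative ratios. The values come from whole AVC tissue, in which fewer cells of a type and less RNA per cell cannot be told apart.

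**Figure D1:**
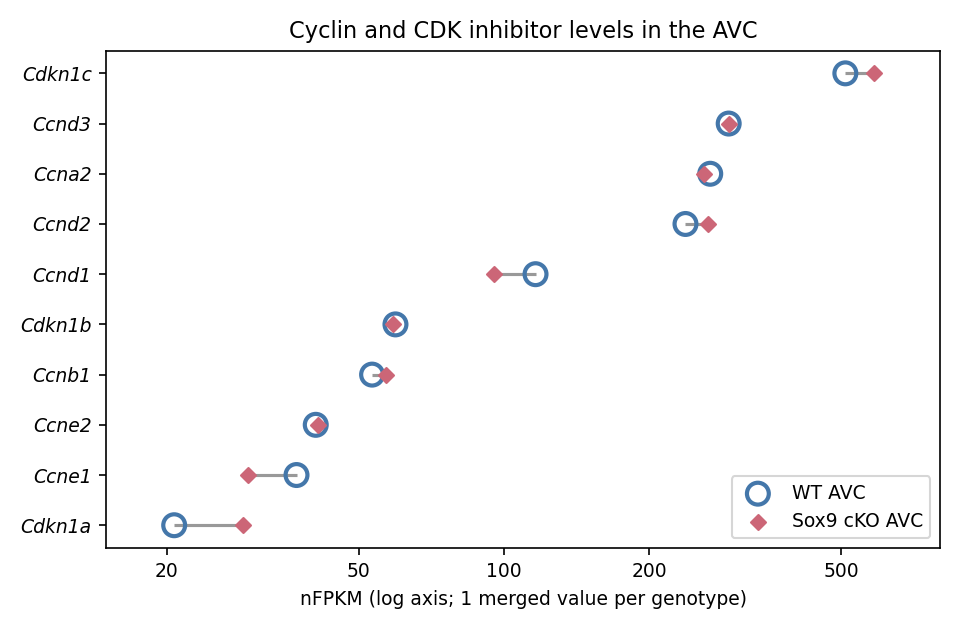
Level of each gene in WT (open circles) and Sox9 cKO AVC (filled diamonds) in nFPKM on a log axis, 1 merged value per genotype, ordered by the WT level. The pairs lie close together for most genes; the widest gaps are at Cdkn1a (20.7 and 28.8 nFPKM), Ccne1 (37.2 and 29.6 nFPKM) and Ccnd1 (116 and 95.4 nFPKM).

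The order of levels was almost the same in both genotypes. In WT it ran from Cdkn1c through Ccnd3, Ccna2, Ccnd2, Ccnd1, Cdkn1b, Ccnb1, Ccne2 and Ccne1 down to Cdkn1a. In cKO, Ccnd2 and Ccna2 had exchanged places, at 264 and 260 nFPKM, and the other genes kept theirs. Whether neighbours in this order differ beyond replicate error cannot be said from 1 value each. Cdkn1c lay above 98.8% of all transcripts in WT, and Cdkn1a above 48.7%. For 5 of the genes (Ccnd1, Ccnd3, Ccne2, Cdkn1a and Cdkn1c) RefSeq lists more than 1 curated transcript, and the table holds 1 of them.

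Among the D-type cyclins, Ccnd1 was lower and Ccnd2 higher in cKO, while the summed level of the 3 genes hardly differed. Ccnd1, the D-type cyclin most often linked to mitogen signals, stood at 116 nFPKM in WT against 95.4 in cKO, a relative log2 ratio of -0.18. Of all transcripts, 21.3% had a ratio this low or lower. Ccnd2 stood at 238 and 264 nFPKM (0.26), a ratio reached or passed by 14.8% of all transcripts. Ccnd3, the most abundant of the 3, stood at 292 nFPKM in both (0.11). The ratio of Ccnd2 to Ccnd1 within a genotype, which does not depend on the scaling between genotypes, was 2.05 in WT and 2.77 in cKO. The summed D-type level was 646 nFPKM in WT against 652 in cKO, 1.01 times as high, or 1.09 times relative to the all-transcript median. Of that sum Ccnd1 made up 18.0% in WT and 14.6% in cKO, Ccnd2 36.8% and 40.5%, and Ccnd3 45.2% and 44.8%.

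Of the E-type cyclins, Ccne1 was likewise lower in cKO and Ccne2 was close to its WT level. Ccne1 stood at 37.2 nFPKM in WT against 29.6 in cKO (-0.22), the lowest ratio of the 10 genes, and Ccne2 at 40.8 and 41.1 nFPKM (0.12). Ccne2 exceeded Ccne1 by 1.10 times in WT and 1.39 times in cKO, and the share of Ccne1 in their sum was 47.7% and 41.8%. The sum itself was 77.9 nFPKM in WT against 70.7 in cKO, 0.91 times as high, or 0.98 times relative to the median. Of all transcripts, 17.3% had a ratio as low as that of Ccne1 or lower, and without centring its log2 ratio was -0.32, just inside the smaller rule.

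Ccne1 is a textbook target of E2F factors, which are released when D-type cyclin kinases phosphorylate RB. Its promoter, as the lowest member's regulatory sequence, is shown up to the base before the transcription start, from RefSeq on GRCm38.p6 (chr7:38107491-38107557, minus strand), with capitals marking the letters TCCCGC, the core of many E2F sites, on either strand.
Ccne1: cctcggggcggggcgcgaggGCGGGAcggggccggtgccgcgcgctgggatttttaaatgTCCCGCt
The copies begin 47 and 7 bases before the start. At least 2 copies were present in 4.96% of 32851 promoter windows in the RefSeq table, each covering 250 bases before to 50 after a start, and at least 1 in 20.0%. Of the other members with a promoter entry, only Ccnb1, whose ratio was above the median, held this motif, in 1 copy. These are matches of letters, with no measure of binding.

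**Figure D2:**
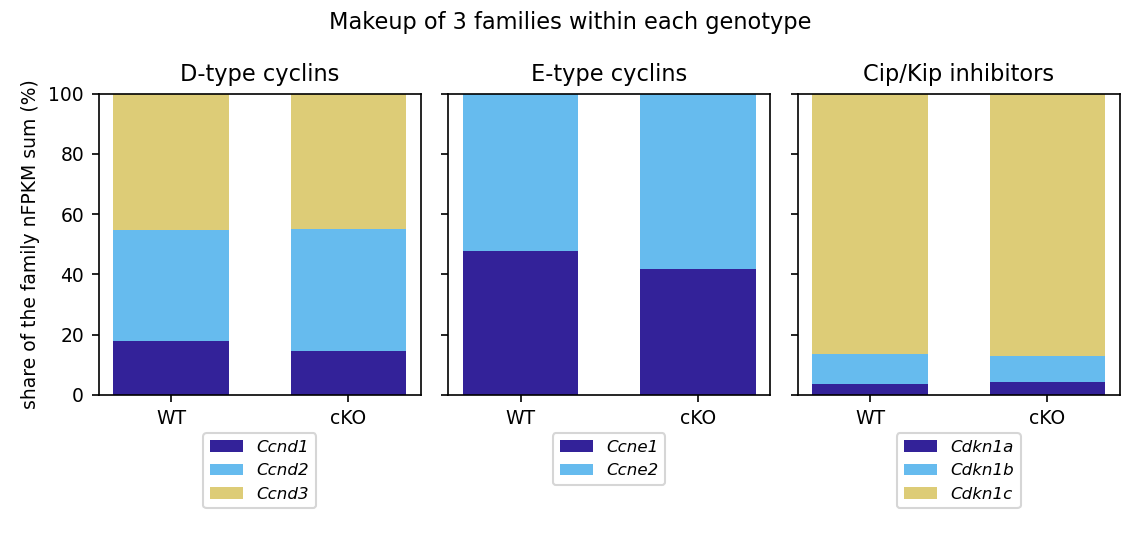
Share of each gene in the summed nFPKM of its family (percent) in WT and Sox9 cKO AVC, 1 value per genotype, for D-type cyclins, E-type cyclins and Cip/Kip inhibitors. Ccnd1 takes 18.0% of the D-type sum in WT and 14.6% in cKO, Ccne1 47.7% and 41.8% of the E-type sum, and Cdkn1c about the same share of the inhibitor sum in both (86.4% and 86.9%).

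Of the cyclins of S phase, G2 and mitosis, Ccna2 lay close to the all-transcript median and Ccnb1 somewhat above it. Ccna2, an abundant transcript in this tissue, stood at 268 nFPKM in WT against 260 in cKO, a relative log2 ratio of 0.06 that was -0.04 without centring. Ccnb1 stood at 53.3 and 56.9 nFPKM (0.20), a ratio reached or passed by 20.2% of all transcripts. There was 5.02 times as much Ccna2 as Ccnb1 in WT and 4.57 times as much in cKO. Their summed level was 321 nFPKM in WT against 317 in cKO, so the pair as a whole hardly differed. Ccnb1 belongs to the genes of G2 and mitosis whose promoters carry paired CCAAT boxes, bound by NF-Y. The pair is shown in its RefSeq promoter on GRCm38.p6 (chr13:100786529-100786605, minus strand), with the letters CCAAT in capitals.
Ccnb1: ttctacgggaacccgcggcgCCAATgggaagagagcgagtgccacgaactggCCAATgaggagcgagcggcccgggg
The boxes begin 99 and 67 bases before the start, and at least 2 copies on either strand were present in 11.7% of all promoter windows. Of the 10 genes 5 had a promoter entry, and among those Cdkn1b held this motif in 3 copies and 1 of 2 windows of Ccnd3 held it in 1 copy.

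The summed level of the Cip/Kip inhibitors was higher in cKO, with Cdkn1c giving most of the summed level and Cdkn1a the largest ratio. Cdkn1c (p57), an imprinted gene expressed from the maternal copy and known for its role in cell cycle exit in the embryo, stood at 510 nFPKM in WT against 584 in cKO, a relative log2 ratio of 0.30. A ratio as high or higher was found in 11.9% of all transcripts, and in 18.3% of the 388 transcripts that reached 300 nFPKM. Cdkn1b (p27) stood at 59.6 and 58.9 nFPKM (0.09, and -0.02 without centring). Cdkn1a (p21), which is induced by p53 and by several kinds of stress, stood at 20.7 nFPKM in WT against 28.8 in cKO (0.56). This was the highest ratio of the 10 genes. A ratio at least as high was found in 3.72% of all transcripts, and in 2.93% of the 3926 transcripts whose higher value lay between 10 and 30 nFPKM. The summed inhibitor level was 590 nFPKM in WT against 672 in cKO, 1.14 times as high, or 1.22 times relative to the median. Set against the D-type cyclins, it was 0.91 times their sum in WT and 1.03 times in cKO. Transcript levels do not show how much protein is bound to kinase, and these proteins are strongly controlled after translation.

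The Cdkn1a promoter is shown because this gene stood furthest from the median. In the more distal of its 2 promoter windows in RefSeq (GRCm38.p6, chr17:29090910-29090965, plus strand), the palindrome ACATGT, which contains the core of a p53 half-site, occurs as a pair and is given in capitals.
Cdkn1a: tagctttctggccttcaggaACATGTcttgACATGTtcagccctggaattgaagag
The copies begin 49 and 39 bases before that start, 10 bases apart. Of all promoter windows 0.329% held at least 2 copies and 5.28% at least 1. The table does not pair starts with transcripts, so it is not known whether the measured transcript (NM_001111099) begins there.

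**Figure D3:**
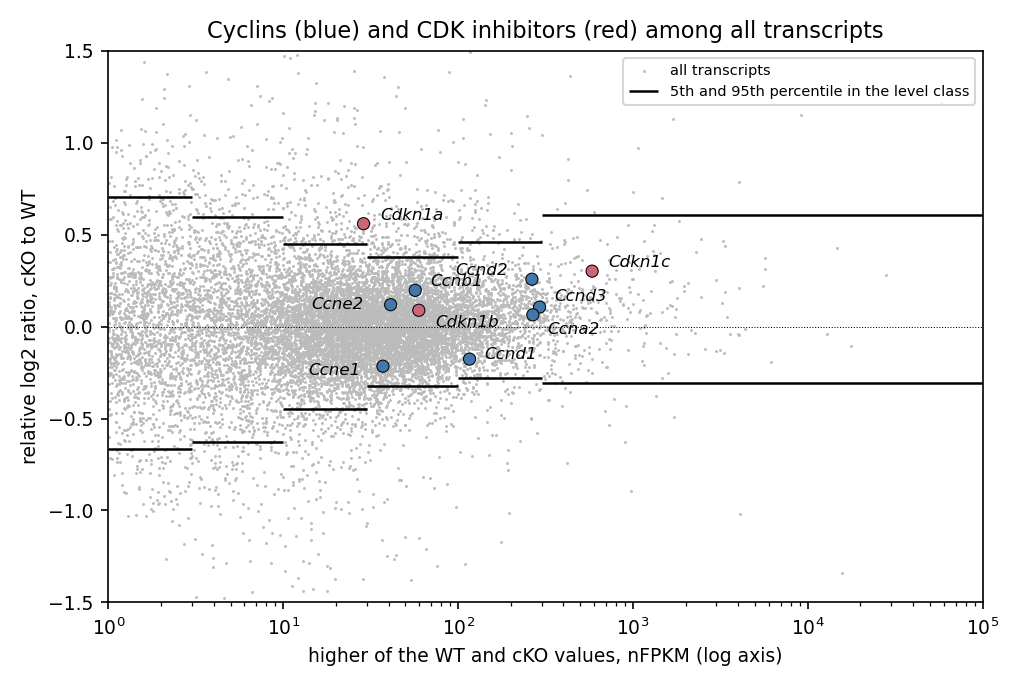
Relative log2 ratio of cKO to WT against the higher of both nFPKM values (log axis) for all 13793 transcripts (grey), cyclins (blue) and CDK inhibitors (red); black lines are the 5th and 95th percentiles in each level class, and 58 transcripts lie beyond 1.5 log2 units and are not drawn. Cdkn1a, at 0.56, lies above the 95th percentile of its class (0.45), and the other 9 genes lie inside the middle 90% of theirs.

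Against transcripts of like level, 9 of the 10 genes lay inside the middle 90% of relative log2 ratios. By definition 90% of all transcripts of a level class lie inside that range, so this count did not differ from the background. That range ran from -0.45 to 0.45 between 10 and 30 nFPKM, from -0.33 to 0.38 between 30 and 100, from -0.28 to 0.46 between 100 and 300, and from -0.31 to 0.60 above 300. Cdkn1a, in the lowest of these classes, lay above its range.

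Most other parts of the cell cycle machinery lay close to the median as well. For the counts below, 20.4% of all transcripts met the smaller rule, and 16.8% with a filter of 5 nFPKM. The wider spread of low transcripts adds to the first share, and most genes of these lists have higher levels. Of 5 measured cell cycle CDKs, the CDK-activating kinase Cdk7 included, none met the smaller rule, and their median was -0.03. Cdk6 stood at 26.8 nFPKM in WT against 28.4 in cKO (0.19), Cdk1 at 123 and 127 nFPKM (0.15), and Cdk7 at 34.6 and 28.8 nFPKM (-0.15). Cdk4, the partner of the D-type cyclins, was the most abundant of them, at 644 and 587 nFPKM (-0.03), and is named after its value was seen. Of 4 INK4 inhibitors, which bind CDK4 and CDK6, 2 passed the filter. These were Cdkn2c (17.6 and 12.9 nFPKM, -0.31) and Cdkn2d (7.41 and 7.18 nFPKM, 0.07), both far below Cdkn1c in level. Neither met the rule, and the midpoint of both ratios was -0.12. Without centring, or with a pseudocount of 0.1, 1 of them met it.

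Among 15 other cyclins that passed the filter, 2 were higher and 1 was lower by the smaller rule, and the median was 0.09 (negative without centring). Ccng2, an atypical cyclin linked to cell cycle arrest, stood at 52.9 nFPKM in WT against 71.9 in cKO (0.54), and Ccnj at 15.4 and 9.95 nFPKM (-0.47). Ccnk, the partner of the transcriptional kinase CDK12, stood at 24.7 and 28.2 nFPKM (0.29). Of 10 regulators of CDK phosphorylation and small CDK-binding proteins, 2 were past the rule, both higher, and 5 lay on each side of the median. Cdkn3, a phosphatase that acts on CDK2, stood at 18.95 and 25.4 nFPKM (0.51) and Cables1, an adaptor of CDKs, at 8.12 and 9.91 nFPKM (0.37). Cdc25c, which activates CDK1, stood at 21.4 and 24.4 nFPKM (0.28).

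No gene of the RB, E2F and MuvB list (20 genes), the ubiquitin ligases for cyclins and inhibitors (27), the S phase genes (24) or the genes of G2 and mitosis (27) met the smaller rule. Their medians were 0.03, -0.03, -0.04 and 0.06, and without centring the first and the last of these became negative. Without centring 2 genes of the first list and 2 of the second also met the rule, all lower. With a pseudocount of 0.1, 1 gene of the first list met it. Below the all-transcript median were 18 of 24 S phase genes, with Pcna, the sliding clamp of DNA replication, at 110 nFPKM in WT against 88.0 in cKO (-0.21) and Tk1 of thymidine salvage at 56.1 and 46.2 nFPKM (-0.17). Tyms, which makes thymidylate, went the other way (19.3 and 21.0 nFPKM, 0.22). Above it were 17 of 27 genes of G2 and mitosis. Among them Ect2, needed for cytokinesis, stood at 70.7 and 81.4 nFPKM (0.31), the proliferation marker Mki67 at 202 and 228 nFPKM (0.28) and Hmmr, a spindle protein, at 81.5 and 89.9 nFPKM (0.24). Ccnb1 (0.20) lay on the side of the genes of G2 and mitosis and Ccne1 (-0.22) on that of the S phase genes. Ccne2 (0.12) and Ccna2 (0.06), which also act at or in S phase, lay above the median, so the members showed no common pattern by phase. The difference between the lists was not tested. In the RB and E2F list, E2f2 stood at 10.6 and 12.3 nFPKM (0.30), Lin9 of the MuvB core at 22.1 and 16.9 nFPKM (-0.26) and Mybl2 at 12.8 and 10.0 nFPKM (-0.22). Among the ubiquitin ligases, Ube2c, the conjugating enzyme of the anaphase-promoting complex, stood at 296 and 330 nFPKM (0.26), its subunit gene Cdc26 at 40.5 and 44.8 nFPKM (0.25) and the cullin Cul4b at 81.3 and 62.8 nFPKM (-0.26).

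**Figure D4:**
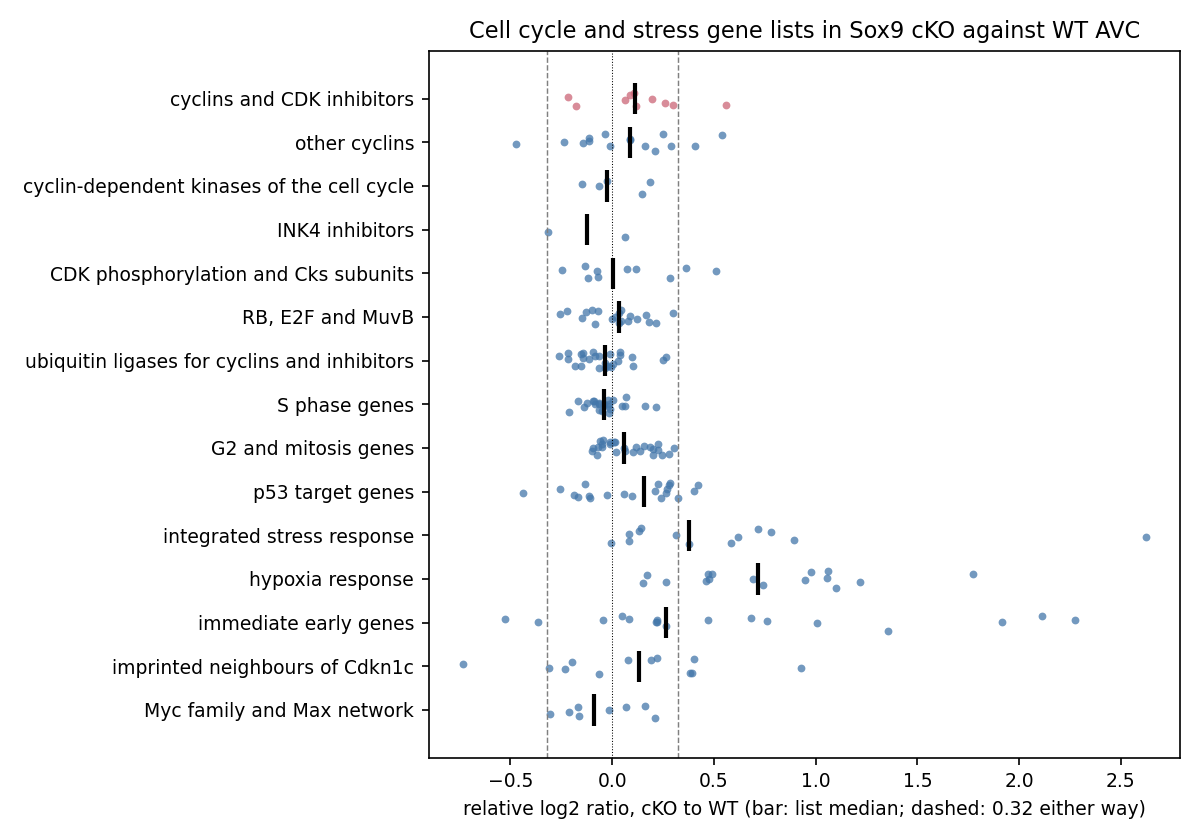
Relative log2 ratio of cKO to WT for the 10 cyclins and CDK inhibitors (red) and for the genes of 14 lists that passed the filter (blue); each point is 1 transcript, bars are list medians and dashed lines mark 0.32 either way. Points of the cell cycle lists sit between the dashed lines with few exceptions, while most genes of the hypoxia response lie to the right of them (13 of 16, beside 10.8% of all transcripts).

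Since Cdkn1a is a target of p53, other p53 targets were set beside it. Of 20 such genes, 12 were above the all-transcript median, with a list median of 0.16, which was 0.05 without centring and 0.08 with a filter of 5 nFPKM. By the smaller rule 3 were higher and 1 was lower, 4 of 20 beside the 20.4% of all transcripts, and the count was 1 with a pseudocount of 5 and 2 without centring. Tnfrsf10b, a death receptor, stood at 7.74 nFPKM in WT against 9.88 in cKO (0.42), Polk, a translesion polymerase, at 10.5 and 13.2 nFPKM (0.40) and Trp53inp1 at 38.9 and 26.4 nFPKM (-0.44). Mdm2 (50.5 and 48.8 nFPKM, 0.06) and Bax (95.6 and 82.0 nFPKM, -0.11), named after their values were seen, lay near the median. All 20 lay below Cdkn1a in ratio.

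Beside the higher Cdkn1a value, many stress-response genes also had higher cKO values. The lists were chosen with earlier results of these data known, so their higher values are not independent of that choice. By the smaller rule 10.8% of all transcripts were higher and 9.62% lower. Of 13 genes of the integrated stress response, 7 were higher and none lower by it, with a list median of 0.38. The transcription factor Ddit3 was at 26.2 nFPKM in WT against 154 in cKO (2.62), Ddit4, an inhibitor of mTOR, at 22.8 and 40.2 nFPKM (0.90) and Ppp1r15a, a phosphatase subunit, at 22.0 and 34.2 nFPKM (0.72). Of 16 hypoxia genes, 13 were higher by the smaller rule (median 0.72), with Ndrg1 at 1.77, Ankrd37 at 1.22 and Adm at 1.10. Of 17 immediate early genes, 8 were higher and 2 lower by it (median 0.26), with Fos at 2.27, Egr1 at 2.11 and Ier3 at 1.91. The part of these differences in the Cdkn1a value was not tested.

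Summed levels of markers differed between the pools for several cell types. The 13 measured erythroid markers summed to 41125 nFPKM in WT against 93264 in cKO, all above the all-transcript median. The 16 valve mesenchyme markers, which include the deleted gene Sox9, summed to 6197 and 4875 nFPKM. Without Sox9, 13 of 15 lay below the median, Papss2 (-2.90) and Twist1 (-1.30) lowest. The 16 endothelial markers summed to 1306 and 1515 nFPKM with 14 above it, led by Emcn (0.82) and Plvap (0.70), and the 10 epicardial markers to 312 and 398 nFPKM with 8 above it, led by Krt19 (1.13) and Lrrn4 (0.90). The 20 cardiomyocyte markers summed to 58553 and 58629 nFPKM, with 10 on each side, Nppb at 1.65 and Sln at -0.72. The 13 macrophage markers summed to 204 and 173 nFPKM, with 4 above and 8 below the median among the 12 past the filter, Cd68 at 0.48 and Lyz2 at -0.27, and the 9 neural crest, glial and neuronal markers to 202 and 219 nFPKM, with 3 above and 6 below, Dct at -2.01 and Erbb3 at -0.68. Ednrb (112 and 147 nFPKM, 0.50), named after its value was seen, was the largest part of that sum, and the other 8 neural markers summed to 90.9 and 72.8 nFPKM. The part of these marker differences in the values of cyclins and inhibitors was not tested. Leaving the erythroid list out of the scaling moved no member's relative log2 ratio by more than 0.0054. Centring cancels a common rescaling of a genotype, so this move had to be small. It does not bear on what the erythroid difference contributes to the members' values.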

How the data were processed

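The genes and lists were chosen with earlier results of these data known. The deposited table holds FPKM values normalized further by the authors (nFPKM), 1 per transcript and genotype, merged over duplicate libraries per the file headers. It also holds the authors' deposited log2 fold change, which was used, centred in the same way, as an alternative. Per the submitters' processing notes, edgeR, Cufflinks and TopHat2 were used with mm9; the derivation of nFPKM is not stated there. Groups came from the genotype labels. The WT values summed to 961487 and the cKO values to 960481. Depth is unknown, so no counting intervals are given.

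Log2 ratios used a pseudocount of 1 and a filter of 1 nFPKM in either genotype, which removed 904 of 14697 transcripts, and were centred on the median. The size rules were 2-fold before centring and a relative log2 ratio of 0.32 after it. Named were all 10 members, up to 3 genes of each of 14 pathway lists and up to 2 of each of 8 marker lists with the largest absolute relative log2 ratio, provided that 1 genotype reached 3 nFPKM. With 2 values per gene, none was named for a similar pattern. Of the list genes, 10 had no row under the listed symbol. SOX9 peaks were not placed near genes, because no mm9 annotation was used. Promoters are from RefSeq (GRCm38.p6), matched by symbol. Python 3.11.15, numpy 2.4.6, pandas 2.3.3 and matplotlib 3.10.9 were used, and the ratio step was tested on simulated data.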

Additional observations from a re-analysis of the deposited data

How the results depend on the processing

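Under 9 alternatives (pseudocounts of 0.1 and 5, no filter, a filter of 5 nFPKM, no centring, the authors' deposited log2 fold change, scaling without erythroid genes, scaling to the upper quartile, rows summed per gene) the count of members past 2-fold stayed at 0 and past the smaller rule (0.32 either way) at 1, Cdkn1a, whose relative log2 ratio ran from 0.45 to 0.58. Centring cancels a common rescaling of a genotype, so the alternatives that changed the scaling could hardly move the ratios. Nor could the filters or the row sums, since every member had 1 row and at least 20.7 nFPKM. The largest move of a member under these was 0.0005. Signs of member ratios changed without centring only, for Ccna2 and Cdkn1b. Family sums and ratios did not move when the highest row per symbol was used, since each has 1 row. Without centring 5 list medians near 0 changed sign, with a pseudocount of 5 there were 2, and the INK4 median did so under 3 settings. Of the list medians, that of the integrated stress response went from 0.38 to 0.27 with a pseudocount of 5 and also 0.27 without centring, inside the smaller rule. The median of the neural list (-0.46) was -0.14 with a pseudocount of 5. It was -0.29 with the filter of 5 nFPKM, which removed Sox10, Fabp7 and Stmn2 from that list. The median of immediate early genes (0.26) was 0.37 without a filter, where Fosb (0.49) joined the list. Chosen after seeing the data, lists without 1 gene had medians of -0.51 (neural, without Ednrb) and -0.34 (valve mesenchyme, -0.47 with Sox9). Of all transcripts, 217 met the 2-fold rule, 511 with a pseudocount of 0.1 and 82 with a pseudocount of 5; 2813 met the smaller rule, and 1452 with a pseudocount of 5. Higher transcripts were 37.8% of those past 2-fold, and 48.4% after scaling to the upper quartile. No paired analysis was possible because each genotype has 1 merged value. For the same reason no replicate could be left out. Unknown depth and unknown replicate spread limit every value.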

Other observations

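Cdkn1c lies in an imprinted domain beside the separately controlled domain of Igf2 and H19, and a list of genes from both was read from the same table. By the smaller rule 10.8% of all transcripts were higher and 9.62% lower. Of 12 listed genes, all past the filter, 7 lay above the all-transcript median, 4 were higher and 1 lower by that rule, with a median relative log2 ratio of 0.13. The median was 0.03 without centring, and the 5 genes past the rule became 2 with a pseudocount of 5 and 2 with a filter of 5 nFPKM. Igf2, a paternally expressed growth factor, stood at 1867 nFPKM in WT against 2295 in cKO (0.40), the channel gene Kcnq1 at 13.1 and 16.2 nFPKM (0.39) and Tspan32 at 3.26 and 4.16 nFPKM (0.38). Kcnq1ot1, the long non-coding RNA of the paternal copy, stood at 16.9 and 17.97 nFPKM (0.19). Also above the median were Ascl2 (0.93, the highest ratio of the list), H19 (0.22) and Cd81 (0.08). On the lower side were Phlda2 (-0.73), Tssc4 (-0.31), Osbpl5 (-0.23), Nap1l4 (-0.20) and Slc22a18 (-0.06). Phlda2, the only gene lower by the smaller rule, Ascl2 and Slc22a18 did not reach 3 nFPKM in either genotype. Their ratios therefore rest on low levels. Kcnq1ot1 and the genes named after it here are named after their values were seen. Where strand was not used in counting, reads of Kcnq1 and of its antisense transcript Kcnq1ot1 cannot be told apart.

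The Myc family and its Max network, which act on the expression of D-type cyclins among many targets, had a median of -0.09 over 8 genes, and none met the smaller rule. Without centring 1 of them, Mxd4 (-0.41), met it. Mxd4 stood at 42.6 nFPKM in WT against 31.8 in cKO (-0.31), Mycn, a regulator of embryonic heart growth, at 40.2 and 32.1 nFPKM (-0.21) and Mnt at 12.5 and 13.5 nFPKM (0.21).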
